A study of Mus musculus with 82 samples.

Results

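Msln, Upk3b, Krt19, Krt8, Krt18, Wt1, Epcam and Cldn7 are genes of surface linings, that is of mesothelium and of epithelium. They were taken by name, as every probe set annotated to exactly 1 of these symbols, whatever its value, and this gave 11 probe sets for the 8 genes out of 22690 probe sets on the array and 12393 named genes. Upk3b had 2 probe sets, Krt8 had 3 and each of the other genes had 1. All 11 passed the filter on low values that left 14286 probe sets for testing.

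The mesothelium is the flat cell layer that covers the peritoneal wall, the mesentery and the gut, and it lies against the oil granulomata that form after pristane. Mesothelin (Msln) is a surface protein of this layer, uroplakin 3b (Upk3b) is a membrane protein of urothelium that mesothelium also makes, and Wt1 is a zinc finger transcription factor that mesothelial cells keep from the embryo. Keratins are filament proteins that assemble as a pair of a type I and a type II chain. Krt8 is the type II chain and Krt18 and Krt19 are type I chains of simple epithelia, and mesothelium makes all of them. Epcam is an adhesion protein of epithelial cells that can bind Cldn7, a tight junction claudin. Both are best known from simple epithelia such as that of the gut.

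RNA came from peritoneal oil granulomata of BALB/c.iMycEμ mice that had received 0.5 ml of pristane by peritoneal injection. All mice carried the Myc gene inserted into the immunoglobulin heavy chain locus, which drives Myc in the B cell lineage, and all received pristane, so that every group shares both and no group is without oil or without the insertion. The mice were at least 8 weeks old at injection, per the labels. Plasma cells that stained with methyl green pyronin were cut from sections by laser, and undissected sections gave whole granuloma RNA, which holds plasma cells as well. Study 1 held captured cells of days 7, 17, 33, 46 and 104 after pristane (25 arrays of 15 specimens, 4, 4, 3, 3 and 1 by day) and whole granuloma of days 7, 17, 33 and 104 (12 arrays of 8 specimens, 2, 2, 3 and 1). Study 2 held captured cells (30 arrays) and whole granuloma (15 arrays) of 3 specimens on each of days 7, 17, 33, 49 and 105. Arrays with 1 specimen code in their titles were averaged. Letters beside the code in some titles were left out of it, so that captured and whole RNA of 1 code can carry different letters. In study 1 a captured array of day 33 without a code counted as its own specimen, and code 003 of day 7 was kept apart from code 3. The labels do not say that codes are separate animals, so that p-values measure the spread between specimens, and in bulk RNA fewer cells of a type and less RNA per cell cannot be told apart.

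The array medians of the log2 values ranged from 4.973 to 5.111 in captured cells and from 5.727 to 5.825 in whole granuloma of study 1, and from 5.309 to 5.641 and from 7.113 to 7.335 in study 2. Captured cells and whole granuloma were therefore compared after quantile normalization, and days were compared within a tissue type on the values as deposited. The difference between 3′ and 5′ control probe sets, which grows with RNA degradation, averaged 4.14 in captured cells and 1.61 in whole granuloma of study 2, and 4.49 and 3.19 in study 1. Tissue type and this sign of RNA quality moved together, and values with it as a covariate are given where they end a call. In captured cells of study 2 it also moved with the days, from 4.35 to 5.07 on day 7 to 3.10 to 3.88 on day 105, without overlap. 1 of the 2 arrays of captured cells of day 49, code 2, of study 2 stood apart, with a median correlation of 0.14 with the other captured arrays of study 2, where the other arrays had 0.79 or more. Without it 10 of the 11 probe sets were lower in captured cells of study 2, as with it. Of 9 plasma cell genes, 6 were higher in captured cells of study 2 and 4 in those of study 1. Of all tested probe sets 34.6% and 32.2% were higher. Past the threshold 0 of the 9 were lower in either study, where 35.9% and 29.3% of all were. Irf4 and Jchain passed in neither study.

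The promoters of 4 of the genes are printed, those of the keratin partners Krt8 and Krt18 and those of Epcam and Cldn7. Each is the 250 bases upstream of the RefSeq start in GRCm38.p6, read 5′ to 3′ on the strand of the gene. Capitals mark CACCTG or its reverse complement CAGGTG, a form of the E-box known from epithelial promoters, searched on both strands. Krt8 (chr15:102004343-102004592, minus strand) and Krt18 (chr15:102027966-102028215, plus strand) lie next to each other on chromosome 15. The window of Epcam is chr17:87635729-87635978 and that of Cldn7 is chr11:69964529-69964778, both on the plus strand, the latter at the further upstream of its 2 listed starts.
Krt8: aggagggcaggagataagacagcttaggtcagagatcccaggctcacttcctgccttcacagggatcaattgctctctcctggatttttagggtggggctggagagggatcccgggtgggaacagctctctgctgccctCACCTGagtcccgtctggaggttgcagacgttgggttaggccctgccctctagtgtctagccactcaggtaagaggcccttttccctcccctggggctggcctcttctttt
Krt18: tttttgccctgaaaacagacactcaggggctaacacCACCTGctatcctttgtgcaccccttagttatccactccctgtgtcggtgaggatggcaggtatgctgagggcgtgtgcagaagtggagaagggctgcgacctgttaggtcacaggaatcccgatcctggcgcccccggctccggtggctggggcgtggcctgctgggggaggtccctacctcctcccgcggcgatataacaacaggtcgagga
Epcam: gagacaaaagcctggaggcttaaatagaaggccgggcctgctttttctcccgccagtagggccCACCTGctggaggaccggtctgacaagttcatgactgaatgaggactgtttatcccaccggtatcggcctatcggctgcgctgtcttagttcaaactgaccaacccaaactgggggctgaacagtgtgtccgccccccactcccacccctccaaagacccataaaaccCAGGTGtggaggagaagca
Cldn7: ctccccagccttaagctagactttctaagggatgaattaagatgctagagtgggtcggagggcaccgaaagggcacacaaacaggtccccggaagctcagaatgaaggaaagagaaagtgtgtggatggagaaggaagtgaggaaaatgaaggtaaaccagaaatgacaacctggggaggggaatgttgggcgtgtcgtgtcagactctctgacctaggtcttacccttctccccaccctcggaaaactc
The Krt8 and Krt18 windows held 1 match each, the Epcam window held 2 and the printed Cldn7 window 0. The window of Upk3b held 0, and that of the downstream Cldn7 start (chr11:69965171-69965420), which lies within the gene and is not printed, held 2. Of 32851 promoter windows of the same length, 17.2% held at least 1 match. CACGTG, the form of the E-box best known from Myc binding, was in 0 of the 6 windows and in 6.02% of all. A match describes letters and shows no binding. Windows were found for 5 of the 8 genes, and Msln, Krt19 and Wt1 had no entry. Each printed window ends at the base before its gene, and the gene bodies lie at chr15:101996711-102004342 (Krt8), chr15:102028216-102032026 (Krt18), chr17:87635979-87651127 (Epcam) and chr11:69964779-69967886 (Cldn7).

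In study 2 the mesothelial and adhesion genes were lower in captured plasma cells than in whole granuloma. Of the 11 probe sets 10 were lower and 0 higher past an adjusted p of 0.05 (limma, Benjamini-Hochberg adjustment over 14286 probe sets), where 70.5% of all tested probe sets passed, 35.9% lower and 34.6% higher. With 1 probe set per gene, the median difference of the 8 genes was −1.11 on the log2 scale, beside −0.02 over all tested probe sets. No probe set had every captured specimen below every whole one, which 3.11% of all tested probe sets had, and none had every one above, which 2.95% had.

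**Figure D1:**
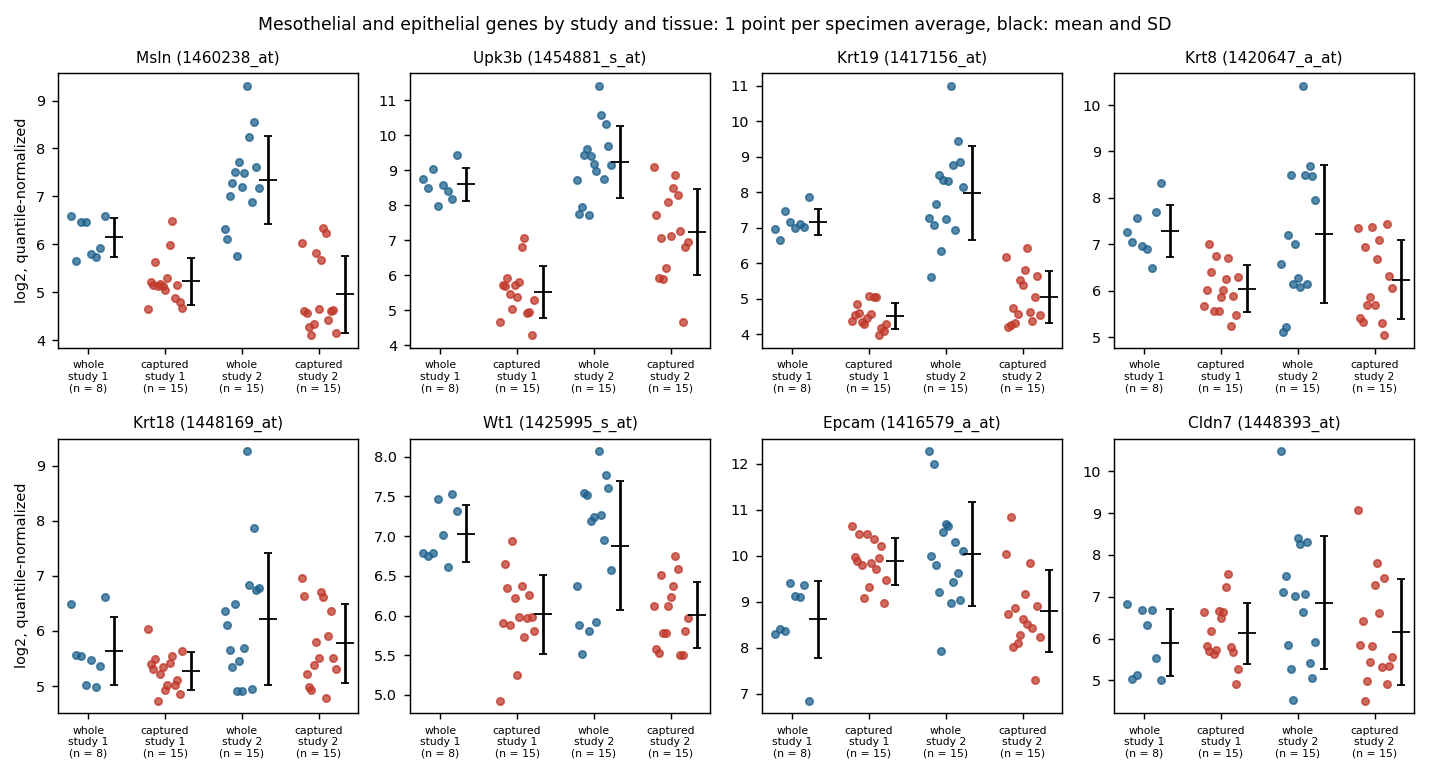
Quantile-normalised log2 level (vertical axis, each panel on its own scale) of 1 probe set for each of the 8 genes in whole granuloma (blue) and captured cells (red) of study 1 and study 2, with 1 point per specimen average over all days and the mean and SD as black bars. The captured points of Krt19 in study 1 sit between 3.97 and 5.08, below all whole points of that study, whereas those of Epcam in study 1 sit between 8.98 and 10.64, with the whole points at 9.40 or less.

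Among the mesothelial proteins, Msln (chr17:25748613-25754378) was at a lowest, median and highest log2 level of 5.76, 7.28 and 9.31 in the 15 whole specimens of study 2 and of 4.10, 4.61 and 6.34 in the 15 captured ones. The ranges overlapped, but within each of the 15 specimens the captured cells were lower. The difference was −2.38 (SE 0.20, adjusted p = 1.79e-13, limma), or 5.21-fold. In study 1 the whole specimens were at 5.66, 6.19 and 6.58 and the captured ones at 4.66, 5.15 and 6.50, with a difference of −1.25 (SE 0.28, adjusted p = 2.43e-04, limma) and lower captured values in 5 of the 5 specimens that had both. Msln was above the median of its column in 5 of 15 captured specimens of study 2 and 2 of 15 of study 1, against 15 of 15 and 7 of 8 whole ones.

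Upk3b (chr5:136038496-136044993) was lower in captured cells of both studies by both of its probe sets. The probe set 1454881_s_at was at a lowest, median and highest level of 7.72, 9.19 and 11.42 in whole and of 4.66, 7.12 and 9.09 in captured specimens of study 2. The difference was −2.02 (SE 0.26, adjusted p = 6.76e-09, limma), lower in 14 of 15 specimens, and the other probe set, 1434237_at, differed by −2.45 (adjusted p = 3.36e-12). In study 1 the 8 whole specimens were at 7.97, 8.53 and 9.45 and the 15 captured ones at 4.28, 5.47 and 7.07, which do not overlap. The differences there were −3.51 (adjusted p = 2.03e-10) and −3.05 (adjusted p = 3.44e-10, limma).

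Wt1 (chr2:105126529-105173614), the transcription factor, differed less. Its lowest, median and highest levels were 5.52, 7.19 and 8.07 in whole and 5.50, 5.97 and 6.75 in captured specimens of study 2, and 13 of 15 specimens were lower in captured cells (difference −0.87, adjusted p = 2.38e-05, limma). In study 1 the difference was −1.17 (adjusted p = 8.25e-05), with captured specimens from 4.93 to 6.94 and whole ones from 6.61 to 7.53. With the 3′ to 5′ difference as a covariate the study 2 value was −0.91 and was not past the threshold (adjusted p = 0.135).

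The keratins did not move as 1 group. Krt19 (chr11:100140810-100145926) showed the largest difference of the 11 probe sets in study 2, from 5.60, 8.16 and 11.01 (lowest, median, highest) in whole to 4.20, 4.72 and 6.42 in captured specimens, a difference of −2.93 (SE 0.25, adjusted p = 3.22e-13, limma) or 7.64-fold, in 15 of 15 specimens. Study 1 had it at 6.65, 7.06 and 7.88 in whole and at 3.97, 4.46 and 5.08 in captured specimens, with no overlap and a difference of −2.73 (adjusted p = 2.99e-08). Captured Krt19 was above the column median in 0 of 15 specimens of study 1 and 3 of 15 of study 2.

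Krt8, the type II partner, was lower by less. The probe set 1420647_a_at was at 5.11, 7.01 and 10.42 in whole and 5.05, 6.07 and 7.44 in captured specimens of study 2, which overlap over nearly the whole captured range. Its 3 probe sets differed by −0.98, −0.90 and −0.97 (adjusted p = 0.00186, 0.00717 and 0.00179, limma), with lower captured values in 10, 11 and 10 of 15 specimens. With the 3′ to 5′ difference as a covariate 1435989_x_at was at −0.37 (adjusted p = 0.749) and 1423691_x_at at −1.38 (adjusted p = 0.149). The study 1 differences were −1.41, −1.57 and −0.93 (adjusted p = 0.00202, 0.00153 and 0.0354), and the last of them did not pass without code 3 of day 7 (adjusted p = 0.0968), code 12 of day 17 (0.0604) or code 5 of day 33 (0.0501). That probe set also failed without day 104 (−0.78, adjusted p = 0.0694). With the 3′ to 5′ covariate 1435989_x_at (−1.29, adjusted p = 0.0684) and 1423691_x_at (−1.15, adjusted p = 0.0764) of study 1 did not pass.

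Krt18, the type I chain that pairs with Krt8, did not pass in either study. Its levels were 4.90, 6.11 and 9.27 in whole and 4.78, 5.51 and 6.97 in captured specimens of study 2, with a difference of −0.45 (95% interval −0.94 to 0.04, adjusted p = 0.0921, limma), lower in 8 of 15 specimens. Without the specimen of code 3 of day 49 it passed (−0.67, adjusted p = 0.00474), and with the 3′ to 5′ covariate it passed as well (−1.62, adjusted p = 0.048). The study 1 difference was −0.40 (adjusted p = 0.308), lower in 3 of 5 specimens.

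Epcam took opposite directions in the studies. In study 2 it was at 7.94, 10.00 and 12.28 (lowest, median, highest) in whole and at 7.30, 8.63 and 10.84 in captured specimens, a difference of −1.24 (SE 0.24, adjusted p = 1.37e-05, limma), lower in 13 of 15. In study 1 it was at 6.85, 8.75 and 9.40 in whole and at 8.98, 9.88 and 10.64 in captured specimens, a difference of 1.50 (SE 0.33, adjusted p = 1.91e-04) or 2.84-fold, and captured cells were lower in 1 of 5. The study 1 increase stood at 0.90 on the values as deposited and at 1.64 after median centring. The study 2 decrease was −0.26 and not past the threshold with the 3′ to 5′ covariate (adjusted p = 0.777). Unlike Krt19, Epcam was above the column median in all 15 captured specimens of each study, and its median position there was at 92.69% of the ranked probe sets in study 1 and 84.44% in study 2.

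Cldn7, whose product can bind that of Epcam, was lower in captured cells of study 2 (4.53, 7.02 and 10.49 in whole against 4.51, 5.83 and 9.08 in captured specimens, difference −0.70, SE 0.26, adjusted p = 0.0166, limma, 13 of 15 specimens). This call was lost with median centring (−0.55, adjusted p = 0.0514), with the 3′ to 5′ covariate (−1.56, adjusted p = 0.0848), with study 2 fitted alone (−0.70, adjusted p = 0.0521) and without the specimen of code 1 of day 17 (−0.59, adjusted p = 0.0548). In study 1 the tissue types did not differ past the threshold (0.11, 95% interval −0.64 to 0.86, adjusted p = 0.812), and the sign turned on the values as deposited (−0.59). Captured specimens of study 1 ranged from 4.90 to 7.54 and whole ones from 5.00 to 6.82.

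In study 1 as a whole 8 of the 11 probe sets were lower and 1, Epcam, was higher, where 61.5% of all tested probe sets passed, 29.3% lower and 32.2% higher. The 2 Upk3b probe sets and Krt19 had every captured specimen below every whole one, which 9.44% of all tested probe sets had. The median difference of the 8 genes, with 1 probe set each, was −1.21, beside 0.06 over all. Scaling sets the split of all calls. In study 2, 49.1% of all called probe sets were higher after quantile normalization, 0.72% on the values as deposited (median difference of all −1.69) and 61.5% with median centring (median 0.19). In study 1 the share was 52.4% after quantile normalization, 12.7% as deposited (median −0.60) and 58.1% with median centring (median 0.14). Of the 11 probe sets, 11 were lower in study 2 as deposited and 9 with median centring. Of all 14286 tested probe sets 13653 were lower as deposited and 4062 with median centring.

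**Figure D2:**
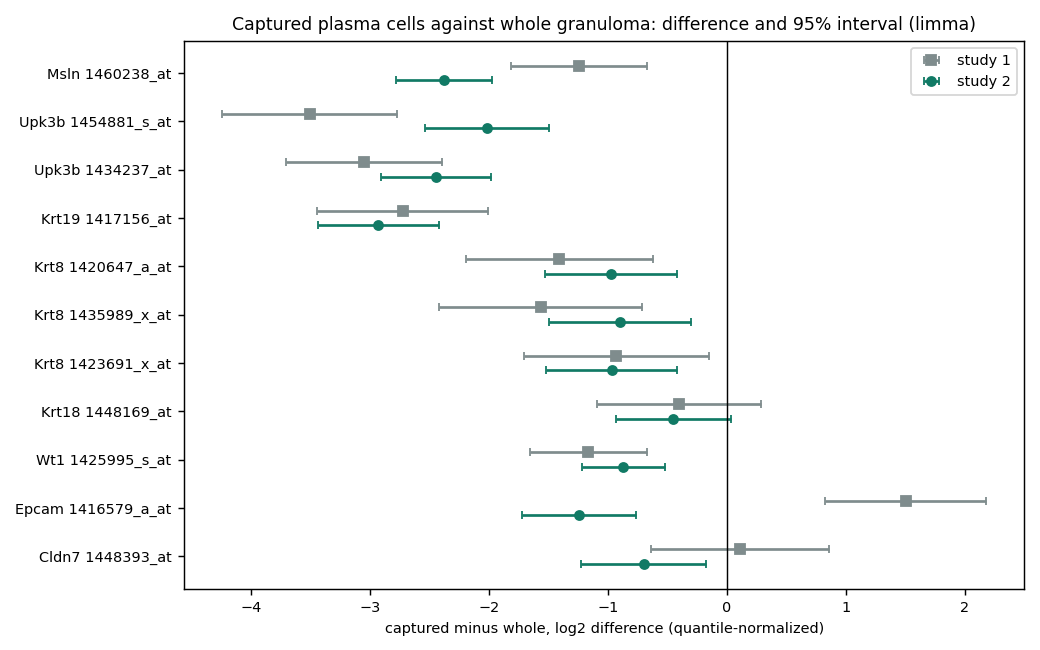
Captured minus whole difference on the log2 scale (horizontal axis, quantile-normalised values) of each of the 11 probe sets in study 1 and study 2, with 95% confidence intervals from limma as bars and a line at 0. Krt19 sits at −2.73 and −2.93 in the studies, while Epcam sits at 1.50 in study 1 and at −1.24 in study 2.

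Whether the tissue difference was the same in both cohorts was tested over 4 day steps, which are days 7, 17 and 33 in both and day 104 of study 1, with 1 specimen, against day 105 of study 2. 3 of the 11 probe sets differed past the threshold, 1 higher and 2 lower, where 47.0% of all tested probe sets did, 23.1% higher and 23.9% lower (limma). Epcam differed by −2.90 between study 2 and study 1 (SE 0.43, adjusted p = 6.5e-07). Msln was lower in captured cells by more in study 2 (−1.11, SE 0.36, adjusted p = 0.0104), a call lost with the 3′ to 5′ covariate (−1.08, adjusted p = 0.0562). Upk3b (1454881_s_at) was lower by less in study 2 (1.52, SE 0.46, adjusted p = 0.00686), a call lost without day 104 of study 1 (0.84, adjusted p = 0.157) and on the values as deposited (0.45, adjusted p = 0.375). Without day 104 Epcam and Msln still passed with the same sign. The other Upk3b probe set, 1434237_at, differed by 0.72 and did not pass. Krt19 differed by 0.0037 (95% interval −0.91 to 0.92). On the values as deposited, where the median of all probe sets is −0.99, 6 of the 11 passed, as did 10486 of all 14286 tested probe sets. The signs of Krt19 (−1.20, adjusted p = 0.0113), Krt18 (−1.02, adjusted p = 0.028) and Wt1 (−0.70, adjusted p = 0.0407) turned with a call. Those of Upk3b (1434237_at, −0.43) and the Krt8 probe sets (−0.19, −0.31 and −0.81) turned without one. The share of called probe sets that were higher was then 4.41%, against 49.1%.

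The size of the tissue difference by day of study 2 was also compared. Msln differed by −3.32, −2.61, −2.08, −2.47 and −1.42 on days 7, 17, 33, 49 and 105, and Krt19 by −3.75, −2.98, −2.40, −3.78 and −1.77. Upk3b (1454881_s_at) went from −3.59 on day 7 to −0.55 on day 105, with −2.54, −1.29 and −2.12 between them. Krt8 (1420647_a_at) was at −1.76, −1.11, 0.13, −2.53 and 0.40. Epcam was at −1.44, −0.66, −1.93, −0.64 and −1.56 and Cldn7 at −0.19, −0.24, −0.93, −0.89 and −1.26, with no day on which either was higher in captured cells. The tissue by day interaction passed for 0 of the 11 (limma, moderated F test), with 5 at an unadjusted p under 0.05, where 4.4% of all tested probe sets passed. The smallest adjusted p was 0.0577, for Upk3b (1434237_at). That count was 6 without the specimen of code 3 of day 49, 3 without that of code 1 of day 49, 4 without both arrays of low agreement and 1 without the array that stood apart.

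Within single days, 10, 4, 4, 7 and 3 of the 11 probe sets were lower in captured cells on days 7, 17, 33, 49 and 105 of study 2, and 0 were higher on any (limma). Of all tested probe sets 20.8%, 19.5%, 22.2%, 24.9% and 14.9% were lower on those days and 20.9%, 20.9%, 23.6%, 17.2% and 14.3% higher. In study 1, 7, 3, 3 and 2 of the 11 were lower on days 7, 17, 33 and 104, where 19.2%, 15.9%, 19.0% and 6.48% of all were, and 19.5% and 4.46% of all were higher on the last 2 of these days. Epcam was the 1 probe set higher in captured cells, on day 7 (1.61, adjusted p = 0.0252) and day 17 (1.64, adjusted p = 0.0275, limma), where 20.6% and 16.0% of all tested probe sets were higher. On day 33 it was at 0.43 (adjusted p = 0.552) and on day 104, with 1 specimen, at 2.33 (adjusted p = 0.091).

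From day 7 to day 105, Krt8, Krt19, Msln and Wt1 fell in whole granuloma of study 2 and Epcam and Cldn7 rose. The fall was not steady, and the highest whole specimen of each falling gene was one of day 49. The days differed for 9 of the 11 probe sets (limma, moderated F test), where 23.1% of all tested probe sets did. This count was 4 without code 2 of day 105 and 4 with study 2 fitted alone. Between day 7 and day 105, 6 of the 11 fell and 2 rose, where 17.9% of all tested probe sets changed, 11.1% falling and 6.81% rising. The median change of the 8 genes, with 1 probe set each, was −1.40, beside 0.01 over all. Of all called probe sets 38.0% rose, and 52.5% did with median centring, which moved the median of all to 0.13 and left Msln at −1.22 and not past the threshold (adjusted p = 0.0531, limma). The directions of the other 7 calls held with it. The count of 8 was 4 without code 1 of day 7 and 5 without code 2 of day 7.

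Krt8, the type II keratin chain, fell by all 3 of its probe sets. By 1420647_a_at the 3 whole specimens of study 2 were at 10.14, 9.96 and 9.43 on day 7, at 8.76, 9.93 and 7.68 on day 17, at 8.56, 7.85 and 7.45 on day 33, at 11.68, 9.90 and 7.77 on day 49, and at 8.14, 6.58 and 6.69 on day 105. Days 7 and 105 did not overlap, and day 49 held both the highest specimen of all and one within the range of day 105. The change from day 7 to day 105 was −2.71 (SE 0.63, adjusted p = 0.00218, limma), and the other 2 probe sets fell by 2.66 and 2.86. The call of each of the 3 held with every one of the specimens left out in turn.

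Krt19 was at 10.82, 10.31 and 9.62 on day 7 and at 8.82, 7.08 and 8.45 on day 105, with 12.21, 10.17 and 8.52 on day 49. It fell by 2.13 (SE 0.56, adjusted p = 0.00608, limma). Without code 1 of day 7 the adjusted p was 0.0508 and without code 2 of day 105 it was 0.0894. Krt18 was at 9.38, 8.38 and 8.33 on day 7 and at 7.93, 7.58 and 7.10 on day 105. These do not overlap either, but the change of −1.16 did not pass (adjusted p = 0.145), although the 5 days together differed (adjusted p = 0.0285). Its day 49 specimens ranged from 6.45 to 10.65.

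Among the mesothelial genes, Msln was at 10.02, 9.20 and 8.70 on day 7, 8.83, 9.05 and 7.30 on day 17, 9.22, 8.72 and 8.69 on day 33, 10.68, 9.67 and 8.49 on day 49, and 7.89, 7.58 and 8.40 on day 105. It fell by 1.34 from day 7 to day 105 (SE 0.46, adjusted p = 0.0351, limma), a call that was lost without code 1 (−0.99, adjusted p = 0.218) or code 2 of day 7 (0.0849) and without code 1 (0.0504) or code 2 of day 105 (0.166). It was lost as well with study 2 fitted alone (0.103), with arrays not averaged (0.152) and with the titles' letters kept (0.0591). Wt1 was at 9.30, 9.20 and 8.12 on day 7 and at 7.94, 7.35 and 6.97 on day 105 and fell by 1.45 (SE 0.41, adjusted p = 0.01), with the call lost without code 1 (0.0704) or 2 (0.0686) of day 7 or code 3 of day 105 (0.0828). Upk3b went from 11.60, 11.06 and 10.57 to 10.16, 9.27 and 9.32, again without overlap, but its change of −1.49 did not pass (adjusted p = 0.0794). Without code 1 of day 105 it was −1.78 and passed (adjusted p = 0.0315).

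The same whole specimen, code 1 of day 49, was the highest of the 15 for Msln, Upk3b, Wt1, Krt19, Krt8 and Krt18. The specimen of code 3 of that day was the lowest of its day for the same 6 genes. For Epcam (11.56) and Cldn7 (9.81) that specimen was instead the highest of its day.

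Epcam and Cldn7 went the other way. Epcam was at 10.99, 10.47 and 11.43 on day 7, at 11.13, 10.58 and 9.38 on day 17, at 11.78, 11.92 and 11.62 on day 33, at 10.36, 10.74 and 11.56 on day 49, and at 13.22, 11.37 and 12.90 on day 105. Days 7 and 105 overlapped, and the rise of 1.53 (SE 0.54, adjusted p = 0.0401, limma) was lost without code 1 (0.0813) or 2 (0.168) of day 7 or code 1 (0.159) or 3 (0.149) of day 105. It was also lost without the filter on low values (adjusted p = 0.052) and with study 2 fitted alone (0.062).

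Cldn7 rose by more. Its whole specimens were at 7.03, 6.60 and 7.50 on day 7, at 7.47, 6.86 and 5.97 on day 17, at 8.57, 9.85 and 9.41 on day 33, at 8.23, 8.64 and 9.81 on day 49, and at 11.75, 8.61 and 8.90 on day 105. All 9 specimens of days 33, 49 and 105 lay above all 6 of days 7 and 17, as for 0.175% of all tested probe sets. This split of the days was chosen after the values were seen, so that nothing is read from it. The rise from day 7 to day 105 was 2.71 (SE 0.61, adjusted p = 0.00149, limma), and the call held with every one of the specimens left out in turn, with 1.71 as its lowest value, without code 1 of day 105. The F test over the 5 days gave an adjusted p of 4.76e-04. Except for Epcam, the day 7 and day 105 specimens did not overlap for any of the 11 probe sets. Of all tested probe sets 19.0% had every day 105 specimen below every day 7 one, and 17.3% had every one above.

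**Figure D3:**
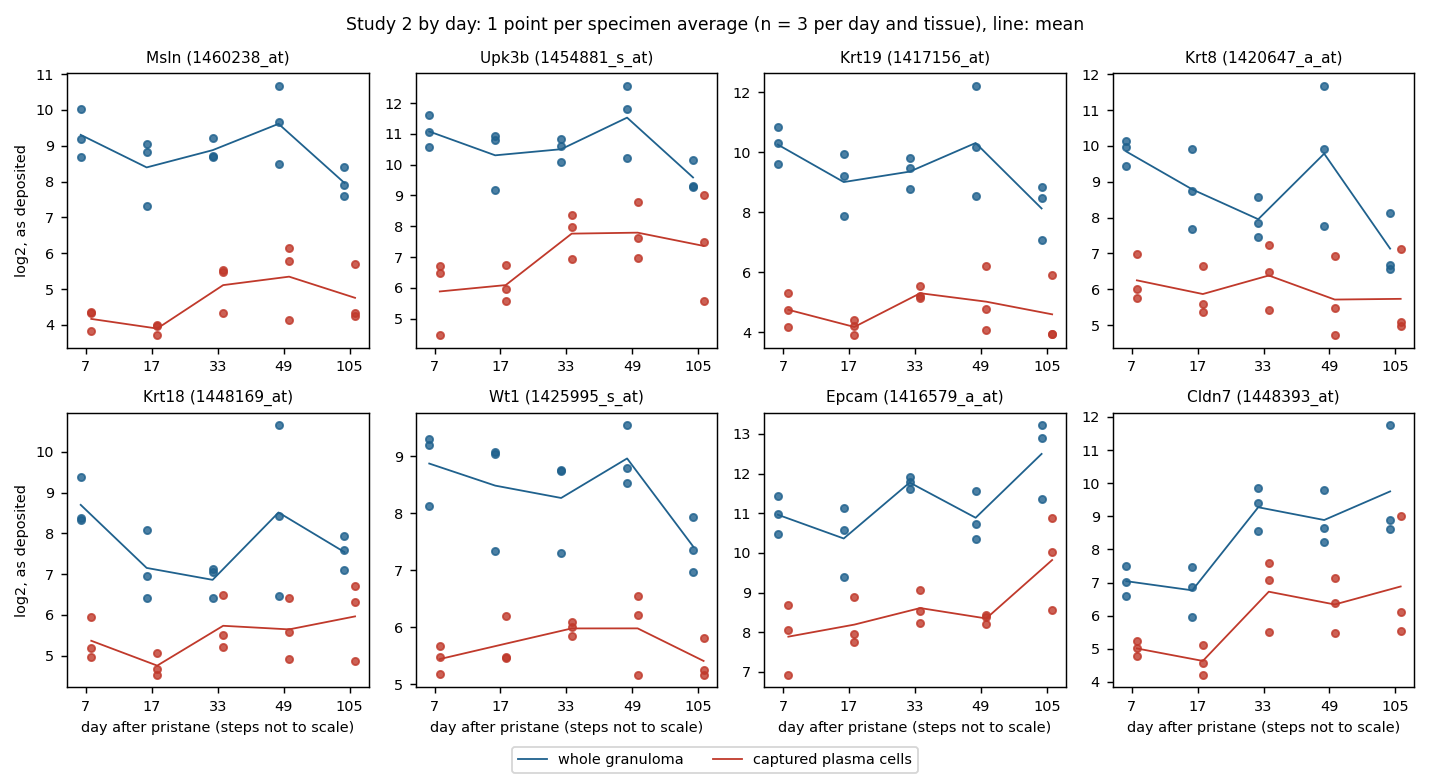
Log2 level as deposited (vertical axis, each panel on its own scale) of 1 probe set for each of the 8 genes by day after pristane in study 2 (horizontal axis, steps not to scale), with 1 point per specimen average, 3 per day and tissue type, and lines through the means of whole granuloma (blue) and captured cells (red). In whole granuloma Krt8 went from a mean of 9.84 on day 7 to 7.14 on day 105 and Cldn7 from 7.04 to 9.75.

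Some other cell type lists moved between day 7 and day 105 in whole granuloma of study 2. Their counts stand beside 11.1% of all tested probe sets that fell from day 7 to day 105 and 6.81% that rose. All 9 smooth muscle genes tested fell from day 7 to day 105, and the mean level of the list went from between 11.90 and 12.98 in the day 7 specimens to between 6.76 and 9.29 in those of day 105. Of 9 plasma cell genes 5 rose, and the list's mean level went from 9.85 to 10.04 on day 7 to 10.70 to 11.42 on day 105. Of 15 other mesothelial genes tested, out of 18 on that list, 7 fell and 0 rose past the threshold, and the list's mean level went from 10.06 to 10.49 on day 7 to 8.84 to 9.74. They were Ptgis (−2.20), Igfbp6 (−2.06), Krt7 (−1.84), Rspo1 (−1.38), Bnc1 (−1.35), Cldn15 (−1.33) and Nkain4 (−1.14). Of 9 other simple epithelial genes tested out of 18, 5 rose and 1, Krt7, which is on both lists, fell. Those that rose were the membrane protease gene St14 (1.66), the mucin gene Muc1 (1.39), the protease inhibitor genes Spint2 (1.02) and Spint1 (1.00) and the transcription factor gene Grhl2 (0.87). Of 10 intestinal genes 2 passed the filter on low values, and they stood at 0.31 (Muc13) and −0.20 (Lgals4) in captured cells against whole granuloma of study 2. From day 7 to day 105 Muc13 changed by 0.32 and Lgals4 by 0.33, and neither passed. Of 7 adipocyte genes 4 fell (median of the list −2.94), and of 10 fibroblast genes 4 fell (median −0.88). Fewer changed on the remaining lists, where 1 of 8 endothelial and 2 of 9 macrophage genes fell and 0 of 8 pancreatic acinar genes passed. The part of these cell types in the changes of the 11 probe sets was not tested.

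The same lists were compared between tissue types. Of all tested probe sets 35.9% were lower and 34.6% higher in captured cells of study 2, and 29.3% and 32.2% in those of study 1. In study 2, 11 of the 15 other mesothelial genes were lower in captured cells, among them Igfbp6 (−2.49), Ptgis (−2.04), Aldh1a2 (−1.23) and Bnc1 (−1.23). The 3 that were higher were the calcium binding protein gene Calb2 (1.15), Pdpn (0.63) and Gpm6a (0.61). In study 1, 12 of 15 were lower. Of the 9 other simple epithelial genes 5 were higher in captured cells of study 2, among them the desmosome gene Dsp (1.44), Muc1 (1.18) and St14 (0.89), and 4 were lower, among them Krt7 (−0.96). In study 1, 5 were higher and 1 was lower. All 9 smooth muscle genes and all 7 adipocyte genes were lower in captured cells of both studies. In study 2, 7 of 10 fibroblast, 6 of 8 endothelial and 6 of 9 macrophage genes were lower, with 1 higher fibroblast and 1 higher macrophage gene. Captured cells of study 2 had 2 of 8 pancreatic acinar genes higher, while those of study 1 had 6 of the 8 lower. Their part in the values of the 8 genes was not tested.

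In captured cells of study 2 Upk3b and Cldn7 differed over the days. These were 3 of the 11 probe sets, where 14.4% of all tested probe sets differed (limma, moderated F test). The adjusted p was 0.0325 and 0.018 for the Upk3b probe sets and 0.0162 for Cldn7. Upk3b (1454881_s_at) was at 4.46, 6.47 and 6.72 on day 7, at 6.75, 5.57 and 5.95 on day 17, at 7.99, 6.92 and 8.37 on day 33, at 8.78, 7.62 and 6.96 on day 49, and at 9.02, 7.48 and 5.58 on day 105. Day 105 alone spanned 5.58 to 9.02, and 5 of the 15 specimens, left out 1 at a time, each ended the call of that probe set: code 1 of day 7 (adjusted p = 0.0969), code 2 of day 17 (0.0667), codes 1 (0.06) and 3 (0.0598) of day 33 and code 2 of day 105 (0.0532). With the 3′ to 5′ covariate neither Upk3b probe set passed (0.0727 and 0.0541), nor did either with study 2 fitted alone (0.168 and 0.126).

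Cldn7 in captured cells was at 4.77, 5.02 and 5.24 on day 7, at 4.21, 4.58 and 5.11 on day 17, at 5.51, 7.08 and 7.59 on day 33, at 6.38, 5.48 and 7.15 on day 49, and at 9.02, 5.53 and 6.10 on day 105. All 9 specimens of the last 3 days lay above all 6 of the first 2, as 0.658% of all tested probe sets did in captured cells. As in whole granuloma, this split was chosen after the values were seen, so that nothing is read from it. The rise of captured Cldn7 from day 7 to day 105 was 1.87 and did not pass (adjusted p = 0.0511, limma), although the groups did not overlap, as for 14.2% of all tested probe sets. It passed with median centring (1.90, adjusted p = 0.0459) and with the 3′ to 5′ covariate (2.24, adjusted p = 0.0394). Without code 1 of day 105 it was 0.80 (adjusted p = 0.37), and with single other specimens left out it passed in 6 cases, with 2.55 as the highest value. The days call was lost with study 2 fitted alone (0.127).

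Epcam was the 1 probe set of the 11 that rose from day 7 to day 105 in captured cells, and 0 fell, where 4.19% of all tested probe sets rose and 2.95% fell (7.14% in all). It was at 6.93, 8.68 and 8.06 on day 7 and at 10.02, 8.55 and 10.89 on day 105, which overlap, and the rise was 1.93 (SE 0.54, adjusted p = 0.0201, limma). The call was lost without code 1 of day 7 (1.45, adjusted p = 0.274), code 1 of day 105 (1.83, 0.0582) or code 3 of day 105 (1.40, 0.173), with quantile normalization (1.72, adjusted p = 0.0606) and with the 3′ to 5′ covariate (1.72, adjusted p = 0.077). The array of day 7, code 1, was the one with the next lowest agreement with the others (0.79), and without it 1 of the 11 still passed. Krt19 changed by −0.15, Wt1 by −0.03, Krt8 (1420647_a_at) by −0.52 and Msln by 0.59, with none past the threshold. Upk3b changed by 1.48 and 1.34 (adjusted p = 0.131 and 0.118). Single specimens moved these values widely. Without code 1 of day 105 they were 0.65 and 0.58, and without code 1 of day 7 they were 0.77 and 1.06. Without code 3 of day 105 they were 2.37 and 2.05 and passed (adjusted p = 0.0172 and 0.0239), and they passed with the titles' letters kept (1.87 and 1.71, adjusted p = 0.0335 and 0.0316).

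In study 1 no day comparison of the 11 probe sets passed. The F test over days gave 0 of 11 in whole granuloma and 0 in captured cells (limma), with 1 and 2 at an unadjusted p under 0.05, where 0.021% and 0.707% of all tested probe sets passed. From day 7 to day 104, with 1 specimen on day 104, 0 of 11 passed in each tissue type and 0 at an unadjusted p under 0.05, beside 0.0% and 0.798% of all (0.371% higher and 0.427% lower in captured cells). Epcam in whole granuloma was at 9.34 and 7.00 on day 7, 8.48 and 8.43 on day 17, 9.07, 9.04 and 9.42 on day 33 and 8.32 on day 104. Cldn7 was at 5.66 and 4.95 on day 7 and 6.94 on day 104, a change of 1.65 (95% interval −0.19 to 3.49).

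Captured Cldn7 of study 1 was at 4.99, 4.38, 4.69 and 5.07 on day 7, at 6.01, 6.99 and 6.75 on day 46 and at 5.99 on day 104, with a change from day 7 to day 104 of 1.20 (adjusted p = 0.74, limma). The 4 values of days 46 and 104 lay above those of day 7, as they did for 6.55% of all tested probe sets. The captured specimens of the days between 7 and 46 were left out of this comparison, so that nothing is read from it. The titles of captured arrays in study 1 carry a date whose meaning is not stated. In the fit with that date as a random block the arrays were not averaged. The 5 arrays of day 104, all of 1 specimen code, therefore counted as replicates. In that fit 6 of the 11 probe sets differed over the days, where 19.2% of all tested probe sets did. Its changes from day 7 to day 104 were 0.88 for Krt18, 1.56 for Epcam and 1.52 for Cldn7. Its calls rest on the spread between arrays and do not measure the spread between specimens.

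In whole granuloma Msln, Upk3b, Wt1 and the keratins varied together from specimen to specimen, as did Epcam and Cldn7. Over the 15 whole specimens of study 2, Msln and Krt19 had a Pearson r of 0.94 and a Spearman rho of 0.92 (permutation test, adjusted p = 4.7e-05 over the 28 pairs), and r was 0.91 without the 2 specimens farthest from the median of Msln. Msln and Upk3b had an r of 0.94 and a rho of 0.97, and the filament partners Krt8 and Krt18 0.82 and 0.71. Epcam and Cldn7 had an r of 0.81 and a rho of 0.81 (permutation test, adjusted p = 0.00068), which was 0.60 without the 2 farthest specimens. With each day's mean removed, r was 0.91 for Msln and Krt19 and 0.76 for Epcam and Cldn7.

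Of the 15 pairs among Msln, Upk3b, Wt1, Krt19, Krt8 and Krt18, r ranged from 0.52 to 0.94, and from 0.25 to 0.91 without the 2 farthest specimens, and 14 had an adjusted p under 0.05 (permutation test). The 12 pairs of one of these with Epcam or Cldn7 ranged from −0.48 to −0.14, and 0 passed. With the day means removed they ranged from −0.24 to 0.22. The division into 6 and 2 genes was made after the values were seen. Each point is 1 specimen, so that its genes share an RNA sample and its scaling, and the specimens of a day share its time. In captured cells of study 2 the 15 pairs ranged from 0.14 to 0.81 and 10 passed, the 12 cross pairs ranged from −0.22 to 0.66 and 2 passed, and Epcam and Cldn7 had an r of 0.53 and a rho of 0.51 (permutation test, adjusted p = 0.083).

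**Figure D4:**
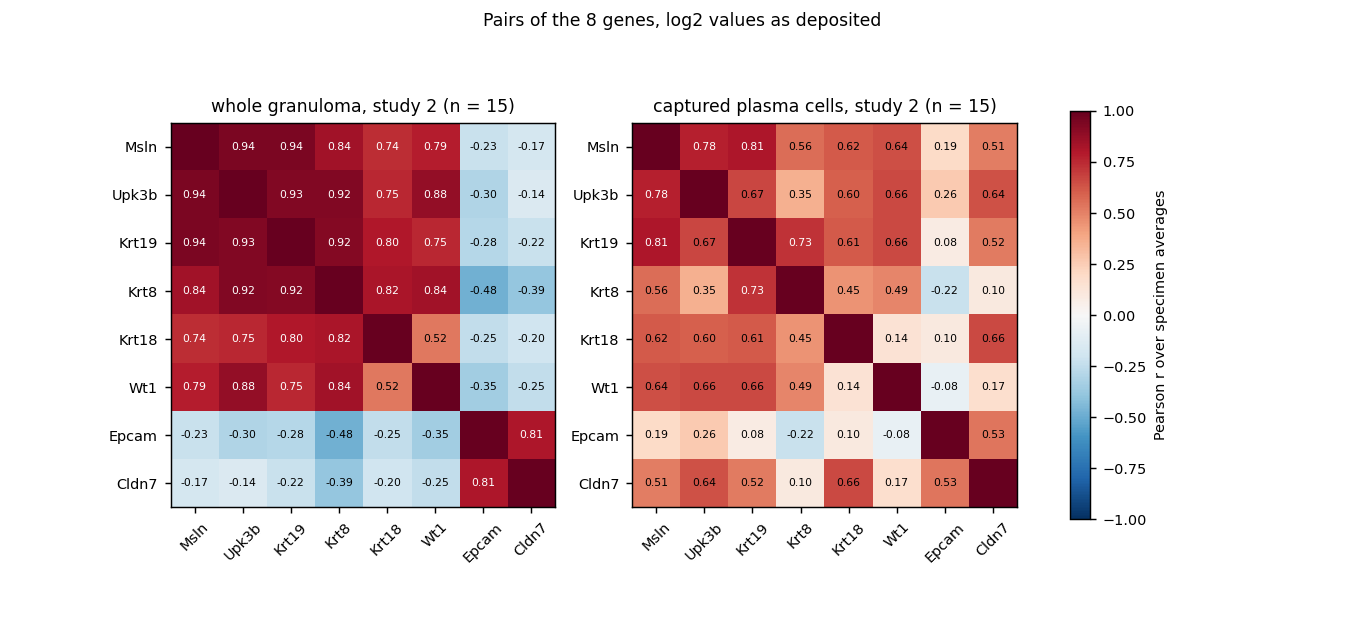
Pearson correlation of each pair of the 8 genes (1 probe set each, 28 pairs) over the 15 specimens of study 2, in whole granuloma and in captured cells, as a coloured square with its value, on a colour scale from −1 to 1. In whole granuloma the squares of Epcam or Cldn7 with the 6 other genes lie between −0.48 and −0.14, and the squares among those 6 lie between 0.52 and 0.94.

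Among 8584 genes, those most like Msln over the 15 whole specimens of study 2 by Pearson r were Nbl1 (0.95), Cldn15 (0.94), Dusp3 (0.94), Epb41l4a (0.92) and Kif1c (0.92). Over the captured specimens the same genes had an r with Msln of 0.57, 0.77, −0.32, 0.79 and 0.24. Those most like Epcam were Gnl3 (0.92), Pbk (0.89), Dad1 (0.89), Fut8 (0.88) and Erlec1 (0.88), with 0.14, 0.52, 0.04, 0.30 and 0.81 over the captured specimens. Msln had 14 genes above an r of 0.9 and Epcam had 1. These are descriptions over points that share arrays and days.

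The 2 arrays of a captured specimen of study 2 did not always give the same level of the 8 genes. For Msln the lowest, median and highest difference between them over the 15 codes was 0.24, 0.64 and 4.25. The highest was code 3 of day 33, with 7.59 on one array and 3.34 on the other, and the same code had the highest difference for Krt8 (4.26). Epcam differed by 0.06, 0.66 and 1.91. For Msln the specimens of a day had an SD of 0.69, beside the median array difference of 0.64. For Upk3b (1454881_s_at) the SD was 1.12, beside a median array difference of 0.92. An SD and a difference between 2 arrays are unlike measures, so that only their sizes are given. The array that stood apart had Krt8 at 7.98 by 1435989_x_at and 4.33 by 1420647_a_at.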

How the data were processed

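RNA from laser-captured cells and from undissected sections was amplified and hybridised to mouse arrays, as the labels' protocols state. The log2 values of the 82 arrays are the authors' own, deposited after RMA. The submitters' processing notes name RMA and Partek, with versions not given in the sources used here. The array's gene table gave the names of probe sets (20393 had 1 symbol, 691 several and 1606 none). The 8 genes, the marker lists and the tests were chosen with earlier results of these data known.

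Averages were taken over the arrays of a specimen code within a tissue type, which gave 53 averages of 33 codes in 19 groups. A probe set was tested when it was above the column median in at least 3 averages. All groups entered 1 limma model (limma 3.58.1, R 4.3.3) with 34 residual degrees of freedom. The specimen code was a random block, with a correlation of 0.103 after quantile normalization and 0.112 as deposited. P-values were adjusted over 14286 probe sets at a threshold of 0.05. Day 104 of study 1, with 1 specimen, borrows the spread of the other groups. Captured and whole samples were compared over the days with equal weights, on quantile-normalized values. Their pairing by code comes from the titles (median correlation of deviations 0.154 in study 2 and 0.151 in study 1). Scripts were tested on simulated data. All 11 probe sets were to be reported, and up to 4 genes of each marker list were to be named by size of change in captured against whole of study 2. The list genes named for the days were added after their values were seen. The number of specimens limits the precision.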

Additional observations from a re-analysis of the deposited data

Results flagged for a closer look

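In captured cells of study 1, the highest of the 4 specimens of day 17 for Msln (4.99) and the highest of the 4 specimens of day 7 for Upk3b (1434237_at, 4.09) stood far from the other 3 of their group on the log2 scale as deposited. Chance alone sets such a value apart in about 1 in 20 groups.

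The captured minus whole difference of study 2 minus that of study 1 passed the limma test for Epcam (−2.90), Msln (−1.11) and Upk3b (1454881_s_at, 1.52). The other Upk3b probe set (1434237_at, 0.72) did not pass. The call of 1454881_s_at was lost without day 104 of study 1 and on the values as deposited.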

How the results depend on the processing

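Counts below are of the 11 probe sets past the threshold under another setting. Nothing is read from a count given without the share of all tested probe sets. Captured against whole in study 2 gave 6 with the 3′ to 5′ difference as a covariate, against 10. Of all tested probe sets 40.3% passed with it, against 70.5%. The study difference gave 6 as deposited, against 3, with Krt19 (−1.20), Krt18 (−1.02) and Wt1 (−0.70) turned in sign with a call. Upk3b (1434237_at) and the Krt8 probe sets turned without one. Of all 14286 tested probe sets 10486 passed for the study difference as deposited, against 6711. The tissue by day test gave 1 as deposited, 1 with arrays not averaged, 4 with the titles' letters kept, 1 without the array that stood apart, 4 without both arrays of low agreement, and 0 to 6 without single specimens, against 0. Days in whole granuloma of study 2 gave 4 with the study fitted alone and 4 to 11 without single specimens, against 9. Days in captured cells of study 2 gave 1 with the covariate, 5 with arrays not averaged, 0 with the study fitted alone and 2 to 5 without single specimens, against 3. Day 105 against day 7 gave 4 to 8 without single specimens in whole granuloma, against 8. In captured cells it gave 0 after quantile normalization, 2 with centring, 2 with arrays not averaged, 4 with the letters kept and 0 to 3 without single specimens, against 1. Of all 14286 tested probe sets 729 passed there after quantile normalization and 1028 with centring, against 1020. The title date as a block, with arrays not averaged, gave 6 for the days in captured cells of study 1, against 0. The cause of these shifts was not tested.

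The specimen numbers 1 to 3 are shared by the days of study 2 but did not pair them (median correlation of deviations 0.049 in whole granuloma, −0.54 to 0.55). As a replicate block they gave 0 for the days and 0 for day 105 against day 7 in captured cells and 6 for the days in whole granuloma. Day 105 against day 7 in whole granuloma gave 8, with both Upk3b probe sets gained (adjusted p = 0.0164 and 0.0347) and Msln (0.0638) and Epcam (0.0658) lost. For captured against whole, no block and a fixed replicate block by code gave 10 in study 2 and 9 in study 1 in both fits.

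Of 3759 values of single probe sets under other settings, 3540 kept direction and side of the threshold, 86 lost the call, 73 gained it, 3 turned with a call and 57 turned without one. Captured Krt19 and Msln levels lie mostly below the array median, and 1 specimen on day 104 limits study 1.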
